A study of Mus musculus and Homo sapiens with 41 samples.

Results

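The genes that write and erase DNA methylation were examined for monoubiquitylated histone H2A (H2AK119ub), as mapped by CUT&Tag, which uses an antibody to bring a transposase to chromatin that carries a given mark and sequences the DNA it cuts there. The 9 genes were Tet1, Tet2, Tet3, Dnmt1, Dnmt3a, Dnmt3b, Dnmt3l, Uhrf1 and Tdg, taken by symbol from 21911 mouse protein-coding genes, and the same 9 upper-case symbols among 20007 human ones. They were listed by function, though with earlier results of these data known. For each gene the bases under called H2AK119ub peaks were summed within 5 kb to each side of its annotated 5′ end (the gene start window) and over the gene body. Because several of these genes have transcripts that begin far inside the gene, the same sum was also taken over the union of the windows around all annotated transcript starts (the all-start window). This last window was a listed alternative, while its rescaled, leave-one-out and interaction fits were added after the data had been seen.

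The series comprised 41 libraries in 14 groups, of which 39 mapped H2AK119ub (27 mouse, 12 human, 3 per group) and 2 mapped the deubiquitylase BAP1 in wild-type (WT) cells. Mouse embryonic stem cells (mESCs), kept in serum with 2i and LIF, were either untransfected (WT and Tet2 KO) or transfected with siRNA (WT siNC, Tet2 KO siNC, Tet2 KO siMbd6 and Tet2 KO siNsun2). Haematopoietic stem and progenitor cells (HSPCs), the Lin-c-Kit+ fraction of bone marrow from mice aged 6 to 8 weeks, were electroporated with shRNA and cultured for 7 days (WT shNC, Tet2 KO shNC and Tet2 KO shMbd6), with Tet2 lost in the germline of the KO mice. K562, an established human erythroleukaemia line, was used as WT siNC, TET2 KO siNC, TET2 KO siMBD6 and TET2 KO siNSUN2. NC stands for a non-targeting control, and every RNA against Mbd6 or Nsun2 was given to KO cells alone, so their effect in WT cells was not measured. The labels did not say whether replicates were separate cultures or animals, so all p-values measure the spread between these libraries, which may be technical.

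TET enzymes oxidise 5-methylcytosine, and TDG excises the more highly oxidised forms so that base excision repair can restore an unmodified cytosine. DNMT3A and DNMT3B set methylation on unmethylated DNA, DNMT3L lacks catalytic activity and stimulates them, and DNMT1 copies the pattern after replication with UHRF1, which recognises hemimethylated CpG sites. H2AK119ub is deposited by Polycomb repressive complex 1, often at CpG-rich promoters, and is removed by the BAP1 complex, with which MBD6 associates. NSUN2 methylates cytosines in RNA. Embryonic stem cells express Tet1, Tet2 and the Dnmt3 genes, and loss-of-function mutations of TET2 and DNMT3A are frequent in clonal haematopoiesis and myeloid disease.

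The libraries differed widely in how much of the genome lay under peaks, and this bears on every value below. Covered length was 9.66 to 17.0 Mb in untransfected and WT siNC mESCs but 1.82 to 5.64 Mb in the 3 KO groups of siRNA-treated mESCs. In HSPCs it was 1.89 to 2.24 Mb in WT shNC, 0.648 to 0.681 Mb in KO shNC and 3.43 to 3.95 Mb in KO shMbd6, and in K562 it was 0.775 to 1.74 Mb. Replicate 1 had the lowest covered length in each of the 6 mESC groups. Peaks on the Drosophila spike-in sequence, which had been added in equal amount, numbered 205 to 231 in KO shNC HSPCs against 48 to 56 in WT shNC and 85 to 95 in KO shMbd6, and 42 to 92 in all mESC groups. The part of these differences in the values at the methylation genes was not tested beyond rescaling to equal covered length, given below. Rescaling multiplies the values of each library, so a value of 0 stays at 0. Peak lists carry no read depth, so a gene at 0 may have lacked the mark or have had too few reads for a peak to be called. In such bulk samples, fewer cells carrying the mark and less mark per cell cannot be told apart. Nor can these lists check the knockout or the knockdowns, since they measure neither RNA nor the deletion, and they hold no RNA of the markers of each cell type. As a description, the gene start windows of the mESC markers Pou5f1, Nanog, Sox2, Zfp42 and Esrrb were covered in 2 or 3 of the 3 WT mESC libraries. Among the HSPC markers Kit was covered in 1 of 3 WT shNC libraries and Cd34, Gata2, Runx1 and Spi1 in none. Of the K562 markers KLF1 was covered in 2 of 3 WT siNC libraries and the other 4 in none.

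Promoters of the methylation genes differed in CpG content and in whether a peak lay on them. Of 16 RefSeq promoters 6 are shown (GRCm38.p6, equivalent to mm10, 250 bases before to 50 after the start, read 5′ to 3′ on the coding strand), with CpG dinucleotides in capitals. They are those that lay under an H2AK119ub peak in the most mouse libraries, 1 per gene, among genes covered in at least 2 of 3 libraries of some group.
Tet1 chr10:62887275-62887574 (− strand): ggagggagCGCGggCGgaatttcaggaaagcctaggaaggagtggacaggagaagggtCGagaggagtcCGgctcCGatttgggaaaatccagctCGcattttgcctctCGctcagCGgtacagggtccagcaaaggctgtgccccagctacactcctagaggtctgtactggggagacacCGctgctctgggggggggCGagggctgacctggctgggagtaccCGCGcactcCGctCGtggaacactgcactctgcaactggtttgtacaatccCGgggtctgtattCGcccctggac
Tet3 chr6:83441629-83441928 (− strand): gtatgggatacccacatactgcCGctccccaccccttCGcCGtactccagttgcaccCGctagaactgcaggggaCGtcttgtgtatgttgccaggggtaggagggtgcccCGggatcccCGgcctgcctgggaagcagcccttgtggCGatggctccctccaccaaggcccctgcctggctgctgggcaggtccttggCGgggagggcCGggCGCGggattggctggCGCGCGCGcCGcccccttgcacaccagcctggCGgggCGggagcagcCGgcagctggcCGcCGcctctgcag
Tdg chr10:82629588-82629887 (+ strand): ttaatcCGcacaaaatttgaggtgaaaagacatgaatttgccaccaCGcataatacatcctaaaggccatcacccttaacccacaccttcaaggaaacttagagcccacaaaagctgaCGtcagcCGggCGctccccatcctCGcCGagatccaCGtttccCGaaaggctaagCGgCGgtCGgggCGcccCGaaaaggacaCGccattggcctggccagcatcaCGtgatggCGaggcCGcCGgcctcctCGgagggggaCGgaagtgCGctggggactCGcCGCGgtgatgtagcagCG
Dnmt1 chr9:20952574-20952873 (− strand): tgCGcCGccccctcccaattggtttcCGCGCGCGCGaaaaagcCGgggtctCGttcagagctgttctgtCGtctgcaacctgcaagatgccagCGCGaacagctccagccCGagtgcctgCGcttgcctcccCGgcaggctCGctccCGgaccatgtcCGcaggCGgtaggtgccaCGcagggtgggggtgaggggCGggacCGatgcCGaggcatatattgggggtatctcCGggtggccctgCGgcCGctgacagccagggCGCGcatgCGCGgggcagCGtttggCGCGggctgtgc
Uhrf1 chr17:56304063-56304362 (+ strand): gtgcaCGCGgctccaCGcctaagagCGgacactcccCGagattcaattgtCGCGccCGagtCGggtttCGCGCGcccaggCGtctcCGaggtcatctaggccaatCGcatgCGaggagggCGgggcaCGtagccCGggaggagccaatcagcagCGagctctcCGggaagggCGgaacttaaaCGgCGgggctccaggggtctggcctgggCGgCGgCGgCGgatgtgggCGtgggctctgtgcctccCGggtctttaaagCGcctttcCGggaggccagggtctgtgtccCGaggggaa
Dnmt3b chr2:153649199-153649498 (+ strand): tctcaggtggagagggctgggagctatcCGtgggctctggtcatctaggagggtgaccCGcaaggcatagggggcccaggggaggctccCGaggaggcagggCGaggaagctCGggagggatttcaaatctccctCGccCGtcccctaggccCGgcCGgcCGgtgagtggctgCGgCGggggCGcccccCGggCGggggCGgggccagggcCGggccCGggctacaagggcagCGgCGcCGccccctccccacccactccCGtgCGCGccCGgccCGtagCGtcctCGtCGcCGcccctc
The Tet1 promoter starts 21.7 kb inside the annotated gene, lay under a peak in 19 of 27 mouse libraries and held 17 CpG sites. The Tet3 promoter, 17.4 kb inside the gene, held 22 CpG and lay under a peak in 10 libraries, 3 of 3 in each of WT, KO and WT siNC mESCs and 1 of KO shMbd6 HSPCs. The Tdg promoter held 26 CpG and was covered in 7 libraries. The Dnmt1 promoter, which also starts inside the annotated gene, held 33 CpG and was covered in 17 libraries. The Uhrf1 promoter held 33 as well and was covered in 12, and that of Dnmt3b held 30 and was covered in 2. The letters CG were counted on 1 strand, being the same on both.

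Over the 16 member promoters the median was 20 CpG, against 7 over 32851 mouse promoters of the same length, and 75% held 10 or more, against 43.5% of all promoters. Median GC content was 65.5% against 52.7%. CpG content did not order these promoters by coverage. The 6 promoters under a peak in 6 or more libraries had a median of 24 CpG and the 7 under none a median of 18. The Tet2 promoter, which had the most CpG of the 16 at 57, and the Dnmt3a promoters with 46 and 47 lay under no peak in any library. No human member promoter sequence was used here.

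**Figure D1:**
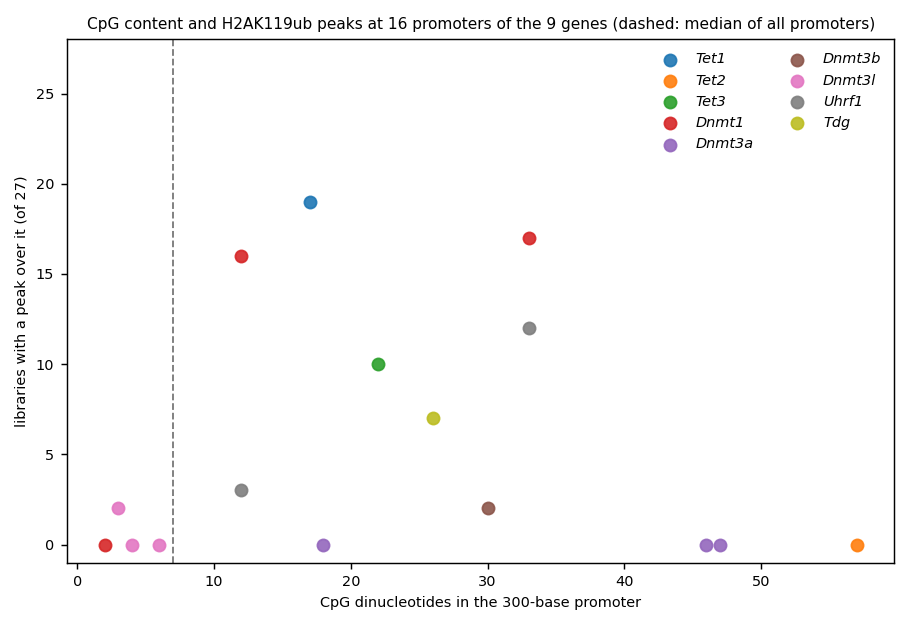
CpG dinucleotides in each of 16 RefSeq promoters of the 9 mouse genes (horizontal axis, count) against the number of the 27 mouse H2AK119ub libraries with a peak over it (vertical axis). The Tet1 promoter with 17 CpG was covered in 19 libraries, while Tet2 with 57 CpG sat at 0.

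Across the mouse genes the mark sat at a few recurrent positions, most of them not at the annotated 5′ end. Peaks of all libraries were merged into regions within 5 kb of each gene. There were 42 such regions, of which 13 were seen in 1 library and 16 in 6 or more, counting regions that lie in the flanks of a gene. At Tet1 the most frequent region was chr10:62886128-62887485, 21.5 to 22.9 kb inside the gene over a non-coding exon and an internal start. It was covered in 20 libraries, including 3 of 3 WT shNC and 3 of 3 KO shMbd6 HSPCs and none of KO shNC. A second, at 42.8 to 43.7 kb, was covered in 7. At Dnmt1 the most frequent was chr9:20952372-20953156, 6.73 to 7.52 kb inside the gene across internal starts, covered in 17 libraries with the same split of 3, 0 and 3 in HSPCs. A second Dnmt1 region, in an intron at 15.6 to 16.1 kb, was covered in 8 libraries, all of untransfected or WT siNC mESCs. Tet1 and Dnmt1 had 0 kb in the gene start window of all 27 mouse libraries, so a count at the annotated 5′ end alone misses their mark.

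Tet3 had 11 regions, against 3 at Tet1 and 1 at Tet2, and 4 of them were covered in 6 or more libraries. The most frequent, chr6:83421581-83422559, lay in an intron 36.5 to 37.5 kb from the 5′ end and was covered in 14 mESC libraries and in no HSPC library. A second region, chr6:83441139-83442164, covered an exon and the internal start whose promoter is shown above, in 10 libraries. Tet2 had a single region, chr3:133544894-133545256, at the 5′ end itself, in 4 libraries, all of mESCs and 1 of them from KO cells. Among the TET genes Tet2 was thus covered in the fewest libraries.

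The de novo methyltransferase genes carried peaks near their 5′ ends. Dnmt3a had 13 regions, of which chr12:3805873-3806382 at the 5′ end (10 libraries) and chr12:3808080-3809070 in an intron (11 libraries) were the most frequent. Dnmt3b was covered mainly at chr2:153649844-153650469, 0.394 to 1.02 kb into the gene in an intron, in 11 libraries. The region of Dnmt3l, chr10:78042941-78043828, was covered in 9 libraries, exactly those of untransfected mESCs and WT siNC mESCs. It also covers the start of Aire, an overlapping gene, and the peaks cannot be assigned to one of them. Uhrf1 was covered at chr17:56303933-56304555 in 12 libraries, and Tdg at chr10:82629259-82629863, across its 5′ end, in 7. The most frequent region near Uhrf1, in 24 libraries including 2 of 3 KO shNC HSPC libraries, lies beyond the gene's end over the start of Kdm4b. It is in neither the windows nor the body of Uhrf1, so it adds nothing to the covered kb, but it is among the 42 regions and the peaks whose enrichment is given below. The gene start window of Uhrf1 also holds the start of Arrdc5, and Glt8d2 overlaps Tdg.

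**Figure D2:**
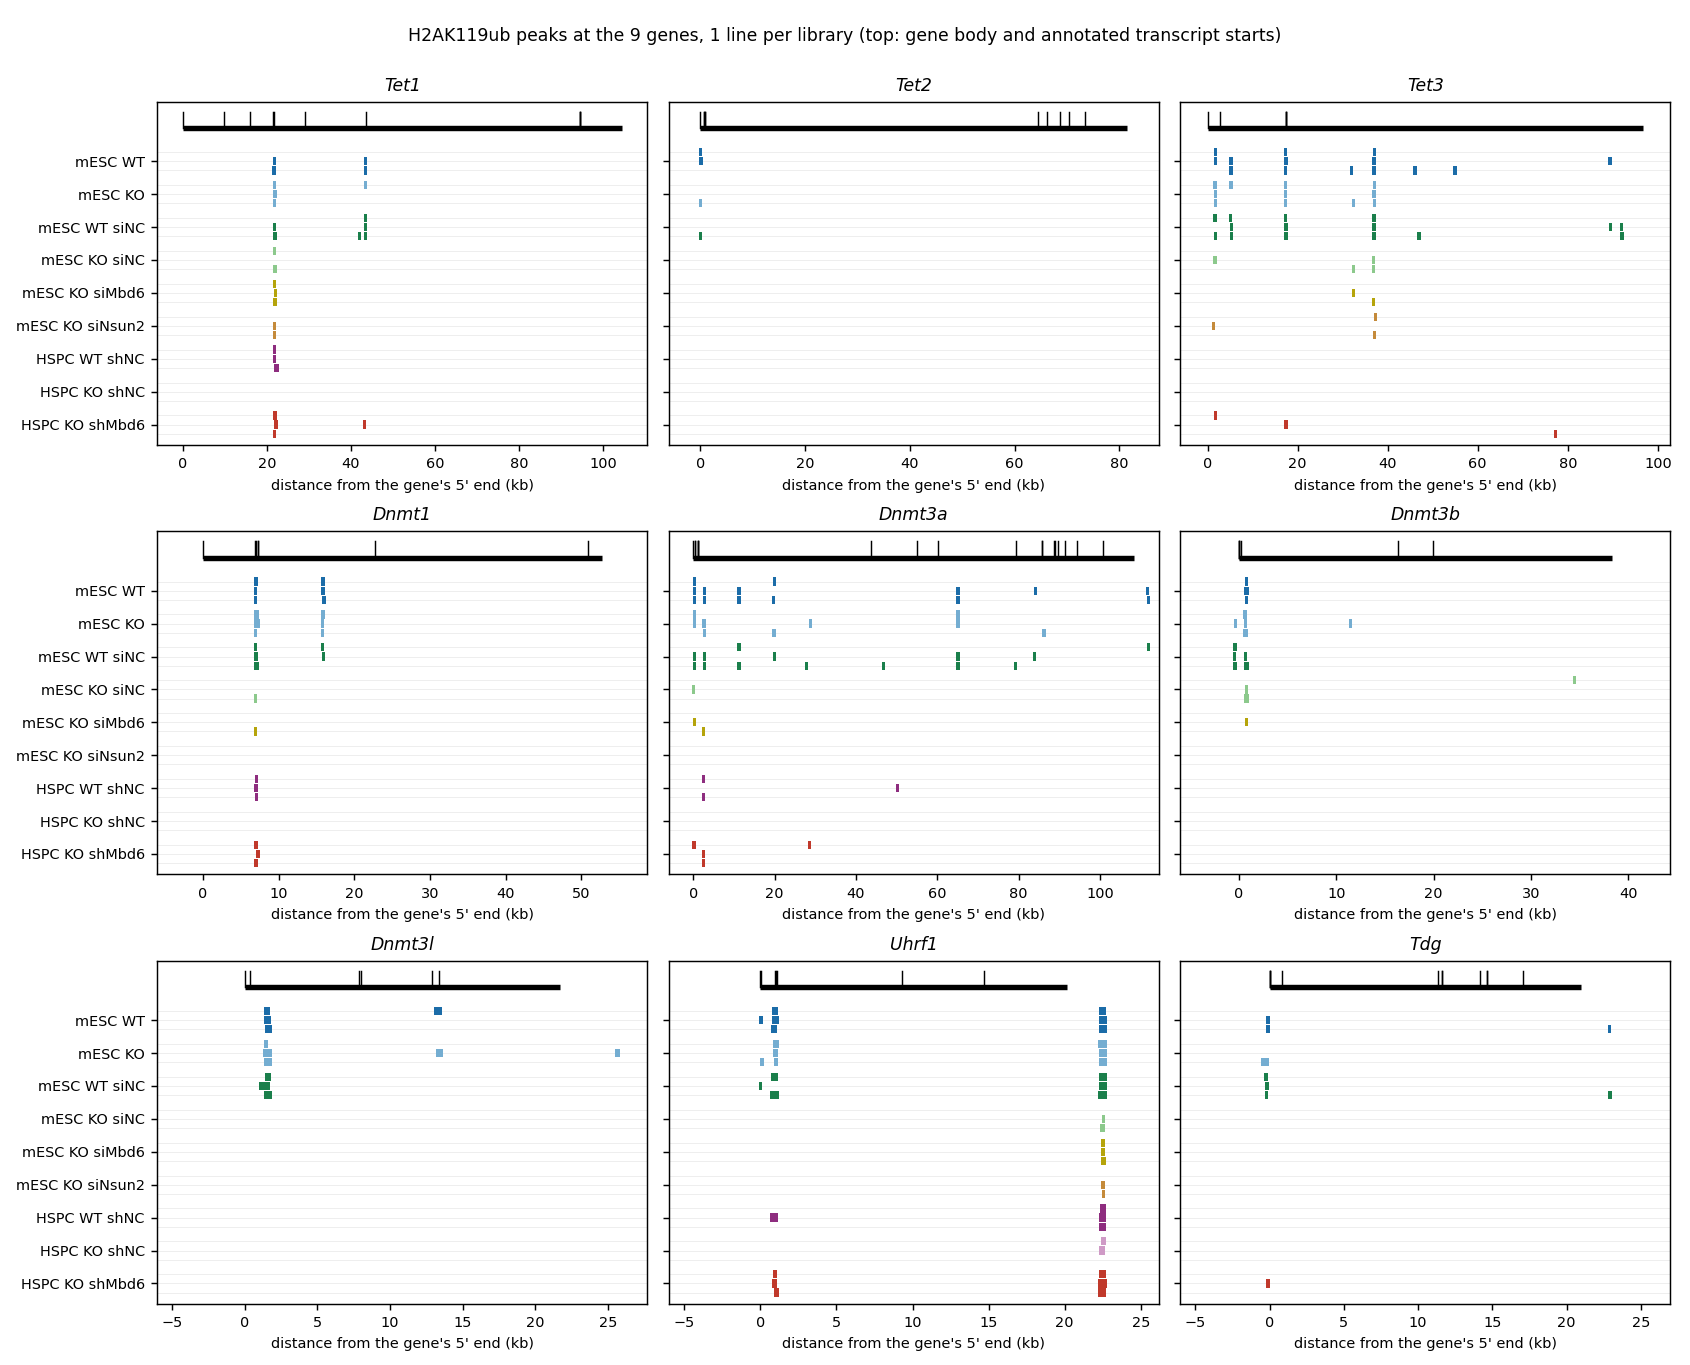
H2AK119ub peaks along the 9 mouse genes, with distance from the annotated 5′ end (kb) on the horizontal axis and one row per library, grouped by cell type, genotype and RNA with replicates from top to bottom. Bars are peaks, drawn no narrower than a fixed visible width, and the recurrent columns stand 21.5 kb into Tet1, 6.73 kb into Dnmt1 and 36.5 kb into Tet3.

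Measured by presence, 7 to 9 of the methylation genes were covered in untransfected and WT siNC mESCs and 0 to 5 in the other groups. A gene was taken as covered in a group if its all-start window held a peak in at least 2 of 3 libraries. In mESCs 9 of 9 genes were covered in untransfected WT (60.4% of all mouse genes), 7 in KO (60.4%) and 8 in WT siNC (60.2%). In the siRNA-treated KO groups 2 were covered with siNC (14.0% of all genes), 2 with siMbd6 (18.8%) and 1 with siNsun2 (13%). In HSPCs the numbers were 3 in WT shNC (13.6%), 0 in KO shNC (2.50%) and 5 in KO shMbd6 (25.9%). In K562 they were 0 in WT siNC (6.12%), 0 in KO siNC (5.55%), 1 with siMBD6 (10.6%) and 2 with siNSUN2 (12.9%). The all-start windows of the 9 mouse genes spanned 22.7 to 67.7 kb, and a wide window can more readily hold a peak. Widths over all genes were not compared. In the gene start window 7 of 9 members were covered in untransfected WT mESCs, 5 in KO and 6 in WT siNC. The shares of all mouse genes there were 55.7%, 55.8% and 55.6%. With 9 genes, these counts describe the group and were not tested against the rest of the genome.

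**Figure D3:**
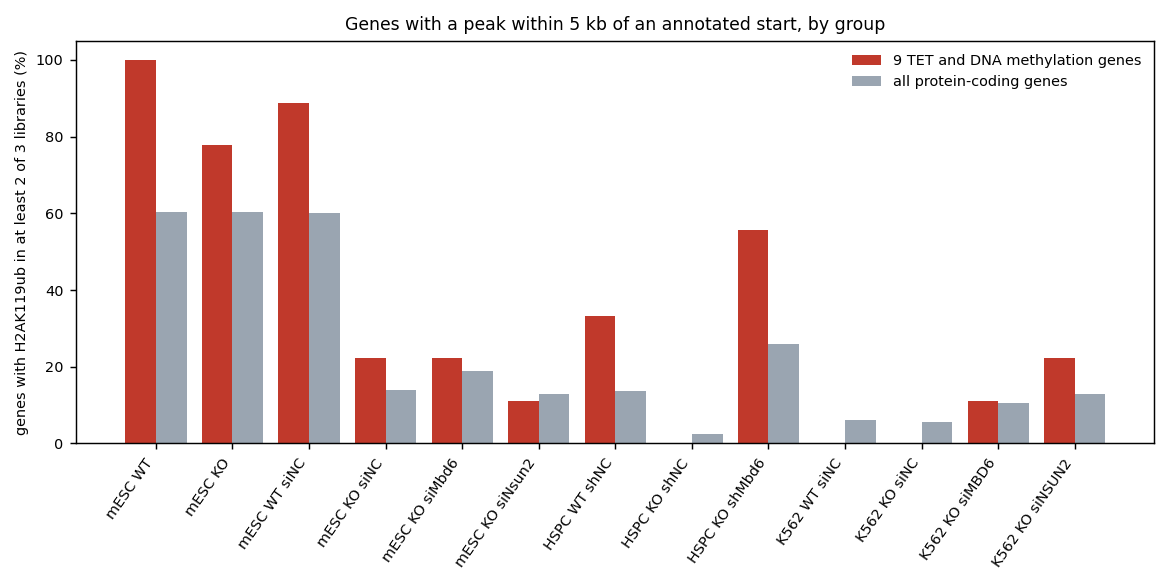
Share of genes (percent) with a peak in at least 2 of 3 libraries within the all-start window, for the 9 methylation genes (red) and for all protein-coding genes, in each of the 13 H2AK119ub groups. The members ran from 9 of 9 in WT mESCs to 0 in KO shNC HSPCs, where 2.50% of all genes were covered. Windows of the mouse members spanned 22.7 to 67.7 kb and were not matched in width to those of all genes.

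Peaks at these genes had median fold enrichments below those of all peaks in most groups. In WT mESCs 57 peaks at members had a median fold enrichment of 3.88, against 4.45 over all 98301 peaks of the group. The medians were 3.85 against 4.27 in WT siNC mESCs, 3.38 against 4.25 in KO siNC mESCs, 4.18 against 4.46 in WT shNC HSPCs and 3.90 against 4.17 in KO shMbd6 HSPCs. They were 3.90 against 4.43 in untransfected KO mESCs. In KO siNsun2 and KO siMbd6 mESCs the medians of 7 and 12 member peaks were 4.11 in both, against 4.36 and 4.17. KO shNC HSPCs were the exception among the mouse groups, with 6.04 for 2 peaks against 5.53, and both of these were the peaks at the Kdm4b start. Of the human groups, K562 with siNSUN2 was the exception, with 4.96 for 7 peaks against 4.90.

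Levels are given next for each gene as covered kb in replicates 1, 2 and 3, TET genes first. Tet1, in the all-start window, had 0.327, 1.02 and 1.95 kb in WT siNC mESCs and 0.554, 0 and 0.608 kb in KO siNC. It had 0, 0.809 and 0.778 kb in untransfected WT and 0.991, 0.701 and 0.446 kb in KO. With siMbd6 it had 0.682, 0.632 and 0.943 kb and with siNsun2 0, 0.304 and 0.731 kb. All of these mESC groups overlapped apart from siMbd6 and KO siNC, where each siMbd6 library lay above each KO siNC library. In HSPCs Tet1 had 0.423, 0.589 and 1.15 kb in WT shNC, 0 in all 3 KO shNC libraries and 0.777, 1.78 and 0.578 kb in KO shMbd6, so both other groups lay above KO shNC without overlap.

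Tet2, the gene knocked out in these cells, had little listed mark. Its gene start window had 0.219, 0.21 and 0 kb in untransfected WT mESCs, 0, 0 and 0.363 kb in KO and 0, 0 and 0.217 kb in WT siNC. It was listed at 0 in the KO siRNA groups and in all HSPC libraries.

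Tet3 was marked at several places along its body, so the body value is given. The body had 2.00, 2.97 and 3.72 kb in untransfected WT mESCs, 2.18, 1.957 and 2.22 kb in KO and 2.56, 2.81 and 3.32 kb in WT siNC. In KO siNC the body had 0, 1.19 and 0.956 kb, with siMbd6 0, 0.571 and 0.473 kb and with siNsun2 0.308, 0.243 and 0.654 kb. The 3 transfected KO groups overlapped each other and lay below every WT siNC library. In HSPCs Tet3 was at 0 in WT and KO shNC and had 0.654, 0.442 and 0.444 kb in KO shMbd6.

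Dnmt1, the maintenance methyltransferase gene, had similar values in the replicates of each group with high coverage. Its body had 0.754, 0.708 and 0.691 kb in untransfected WT mESCs, 1.13, 1.05 and 0.892 kb in KO, and 0.707, 0.763 and 0.681 kb in WT siNC. In KO siNC it had 0, 0 and 0.293 kb, with siMbd6 0, 0 and 0.259 kb and with siNsun2 0 in all 3. The KO libraries of untransfected cells lay above the WT ones without overlap, and those with siNC below. In HSPCs the body had 0.357, 0.46 and 0.35 kb in WT shNC, 0 in KO shNC and 0.567, 0.547 and 0.546 kb in KO shMbd6, 3 groups that did not overlap.

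Uhrf1, whose protein brings DNMT1 to replicated DNA, had 0.403, 0.717 and 0.424 kb in the gene start window of untransfected WT mESCs, 0.376, 0.287 and 0.497 kb in KO and 0.424, 0.215 and 0.601 kb in WT siNC. It was listed at 0 in all 9 libraries of transfected KO mESCs. In HSPCs Uhrf1 had 0, 0.516 and 0 kb in WT shNC, 0 in KO shNC and 0.258, 0.325 and 0.273 kb in KO shMbd6, where WT shNC and KO shMbd6 overlapped.

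The 3 genes of de novo methylation come next. Dnmt3a had 0.216, 0.609 and 0.661 kb in the gene start window of WT mESCs, 0.231, 1.15 and 0.341 kb in KO and 0, 0.839 and 0.904 kb in WT siNC. It had 0, 0.348 and 0 kb in KO siNC, 0, 0.232 and 0.732 kb with siMbd6 and 0 with siNsun2. Replicate 1, the library with the least covered length, was the lowest of its group or tied for it in each of these groups. In HSPCs the window had 0.314, 0 and 0.404 kb in WT shNC, 0 in KO shNC and 0.264, 0.712 and 0.398 kb in KO shMbd6.

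Dnmt3b, the other catalytic de novo enzyme gene among the 9, was covered in the gene start window in 2 of 3 KO siNC libraries and over the body in 3 of 3. Its gene start window had 0.369, 0.528 and 0.331 kb in untransfected WT, 0.328, 0.581 and 0.569 kb in KO, 0.215, 0.44 and 0.86 kb in WT siNC and 0, 0.317 and 0.527 kb in KO siNC, groups that all overlapped. With siMbd6 it had 0, 0.333 and 0 kb and with siNsun2 0. Dnmt3l had 0.451, 0.432 and 0.456 kb in WT, 0.262, 0.603 and 0.526 kb in KO and 0.398, 0.771 and 0.582 kb in WT siNC, and was at 0 in every transfected KO library. Dnmt3b and Dnmt3l were at 0 in all 9 HSPC libraries.

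Tdg, the demethylation glycosylase gene, had 0, 0.296 and 0.259 kb in WT mESCs, 0, 0 and 0.546 kb in KO and 0.279, 0.3 and 0.236 kb in WT siNC. It was at 0 in the transfected KO groups, and 1 library of KO shMbd6 HSPCs had 0.276 kb. Its body was nearly free of peaks, at no more than 0.036 kb in any library.

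For these genes the order of group means was loosely held. Ranking the 9 mouse groups by mean for each gene and leaving out pairs at 0, neighbours were separated without overlap in 1 of 33 pairs for the gene start window, in 3 of 48 for the all-start window and in 7 of 47 for the body. In K562 the count was 0 of 7 for each window. The same share was not computed over all genes, so these counts cannot be read as particular to the methylation genes.

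**Figure D4:**
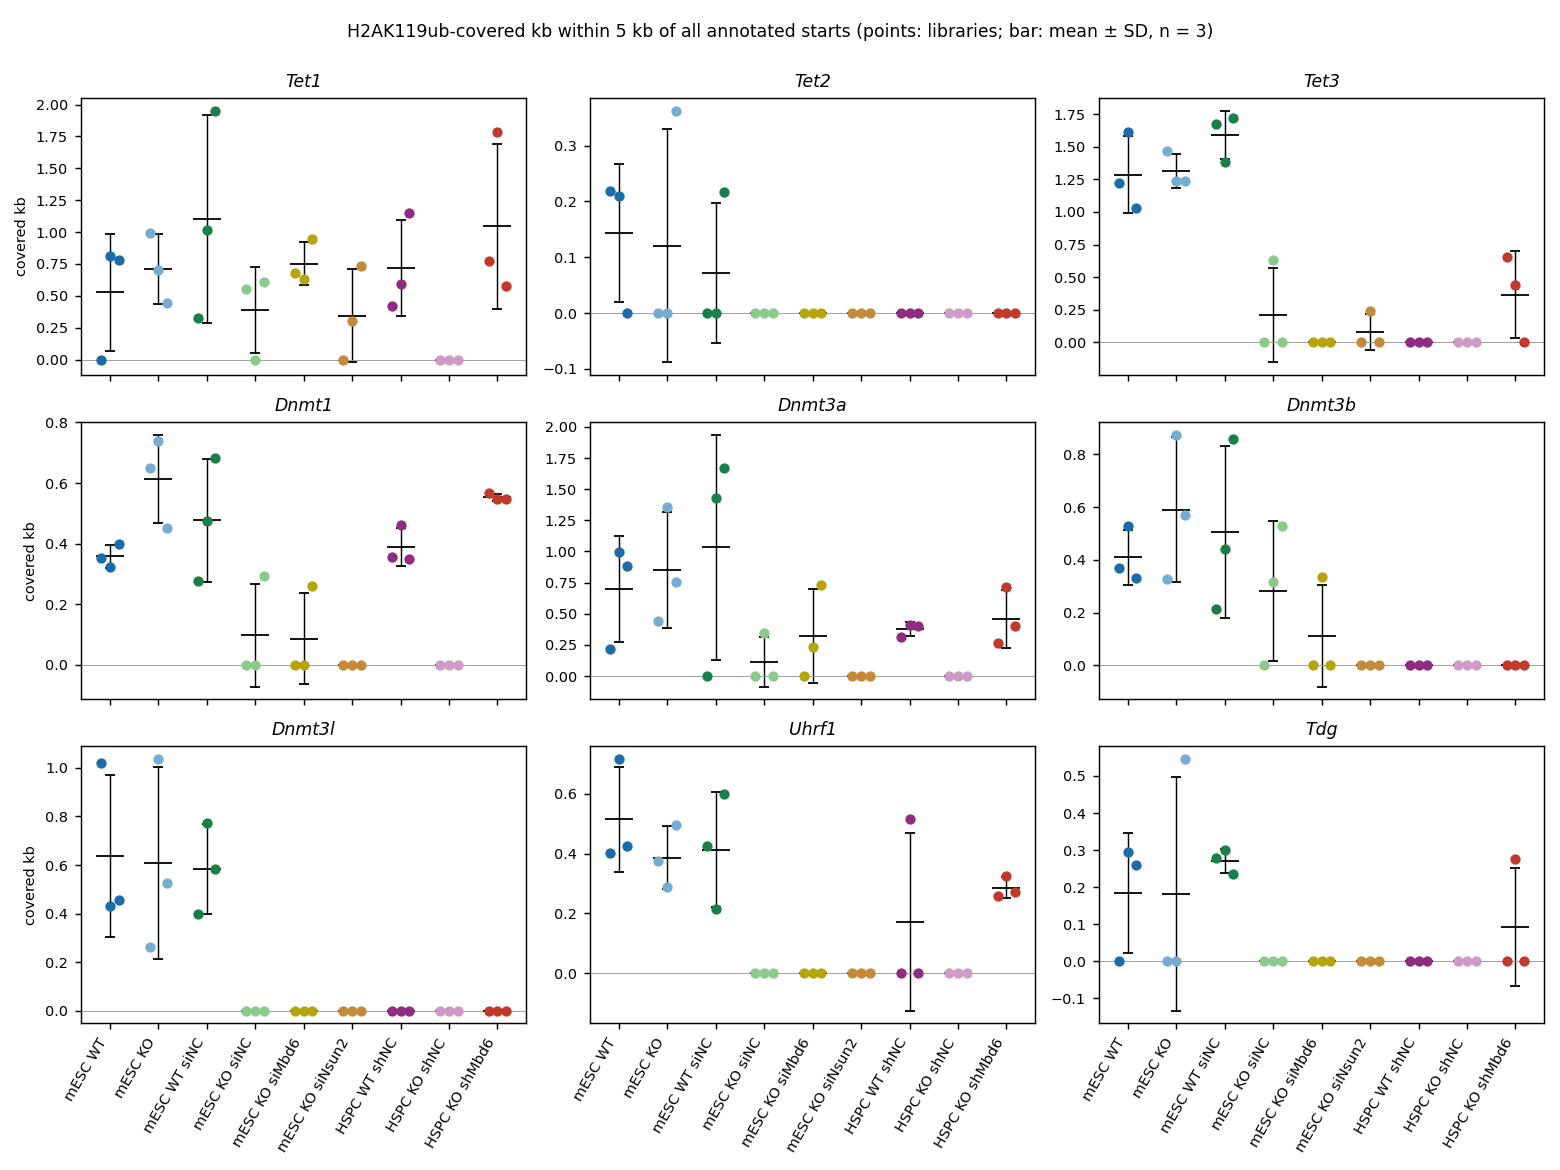
Covered kb in the all-start window of the 9 mouse genes in each H2AK119ub library (points) with the mean ± SD (n = 3), for the 9 mouse groups. Tet3 reached 1.72 kb in WT siNC mESCs, and KO shNC HSPCs stood at 0 for each gene.

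Loss of Tet2 in untransfected mESCs left the coverage of the methylation genes without a call. In limma with Benjamini-Hochberg adjustment over all genes, 0 of 7 tested members passed in the gene start window, where 0.0234% of all windows were called, and 0 of 8 in the body, where 0.609% were. At an unadjusted p under 0.05 there were 0 and 1 members. That 1 was Dnmt1, whose body mean was 1.02 kb in KO and 0.718 kb in WT, a difference of 0.307 kb (SE 0.109, n = 3 per group) with an adjusted p of 0.607. The Tet3 body differed by −0.78 kb (2.12 against 2.90 kb, adjusted p = 0.888). The adjusted p of the members ran from 0.607 to 1.

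In siRNA-treated mESCs, the KO siNC cells had less coverage than the WT siNC cells at 3 genes in the gene start window and at 5 in the body. In the gene start window Dnmt3l fell from 0.584 to 0 kb (SE 0.0741, adjusted p = 8.02e-05), Tdg by 0.27 kb to 0 (SE 0.0258, adjusted p = 1.14e-05) and Uhrf1 by 0.41 kb to 0 (SE 0.0765, adjusted p = 0.000941). These 3 genes entered the test only through the WT siNC libraries, the group in which they were high, so they had to differ, and they give no support as a count. Since 3 libraries at 0 contribute no variation, the p-values of comparisons with such a group can be too small, here and in HSPCs. The other 3 of 6 tested members did not pass, Dnmt3a with −0.465 kb (SE 0.25, adjusted p = 0.116), Dnmt3b with −0.224 kb (SE 0.177, adjusted p = 0.266) and Tet3 with −0.177 kb (SE 0.196, adjusted p = 0.42). Of all gene start windows tested 71.9% were lower, so 3 of 6 is not a result particular to these genes.

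Over gene bodies 5 of 7 members were lower, where 70% of all bodies were. Tet3 fell from 2.90 to 0.714 kb (SE 0.319, adjusted p = 0.000181), Dnmt3a from 1.49 to 0.0713 kb (SE 0.437, adjusted p = 0.0147) and Dnmt1 fell by 0.619 kb (SE 0.101, adjusted p = 0.000383). Dnmt3l and Uhrf1 fell by 0.584 and 0.386 kb (adjusted p = 9.51e-05 and 0.00303), again having entered through WT siNC. Dnmt3b went the other way, with a body difference of 0.137 kb (SE 0.134, adjusted p = 0.371). Tet1 differed by −0.713 kb (SE 0.361, adjusted p = 0.099).

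With all annotated starts, 6 of 8 members were lower, against 74.3% of all such windows. Tet3 fell from 1.59 to 0.21 kb (SE 0.165, adjusted p = 5.65e-05), Dnmt1 from 0.478 to 0.0977 kb (SE 0.117, adjusted p = 0.015) and Dnmt3a by 0.918 kb (SE 0.377, adjusted p = 0.0493). The calls at Dnmt1 and Dnmt3a were lost in most fits that left out 1 library. Dnmt1 was called in 2 of 6 such fits (highest adjusted p 0.1) and Dnmt3a in 1 of 6 (highest 0.148). Tet3 was called in 6 of 6.

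Rescaling each library to the mean covered length of its experiment ended the calls at Tet3, Dnmt1 and Dnmt3a and kept those at Dnmt3l, Tdg and Uhrf1. The median over all gene start windows moved from −0.418 to −0.145 kb, and the calls from 7733 lower and 23 higher to 3853 lower and 284 higher. Over all bodies the calls moved from 7837 lower and 40 higher to 3886 lower and 338 higher. Dnmt3l, Tdg and Uhrf1, at 0 in KO siNC, stayed lower in the gene start window and with all starts. Because rescaling leaves a group at 0 where it is, these kept calls cannot show whether covered length had a part. Over the body Dnmt3l (adjusted p = 7.37e-06) and Uhrf1 (adjusted p = 0.00467) stayed lower. The Tet3 body differed by −0.27 kb (adjusted p = 0.675), Dnmt1 by −0.19 kb (adjusted p = 0.328) and Dnmt3a by −0.49 kb (adjusted p = 0.138). With all starts the differences were −0.44 kb for Tet3 (adjusted p = 0.214), −0.06 kb for Dnmt1 (adjusted p = 0.745) and −0.23 kb for Dnmt3a (adjusted p = 0.533). Dnmt3b was higher over the body after rescaling (0.65 kb, adjusted p = 0.0132), a call that unscaled kb did not give. In KO siNC replicate 1, with 1.82 Mb covered, the body value was a single peak of 0.281 kb, 34.3 kb into the gene and in no other library. A region before the 5′ end, covered in 3 WT siNC and 0 KO siNC libraries, lies outside the body. In the gene start window the rescaled difference was 0.202 kb (adjusted p = 0.489). Tet1 turned from −0.713 to 0.489 kb and Tet3, in the gene start window, from −0.177 to 0.112 kb, neither with a call.

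**Figure D5:**
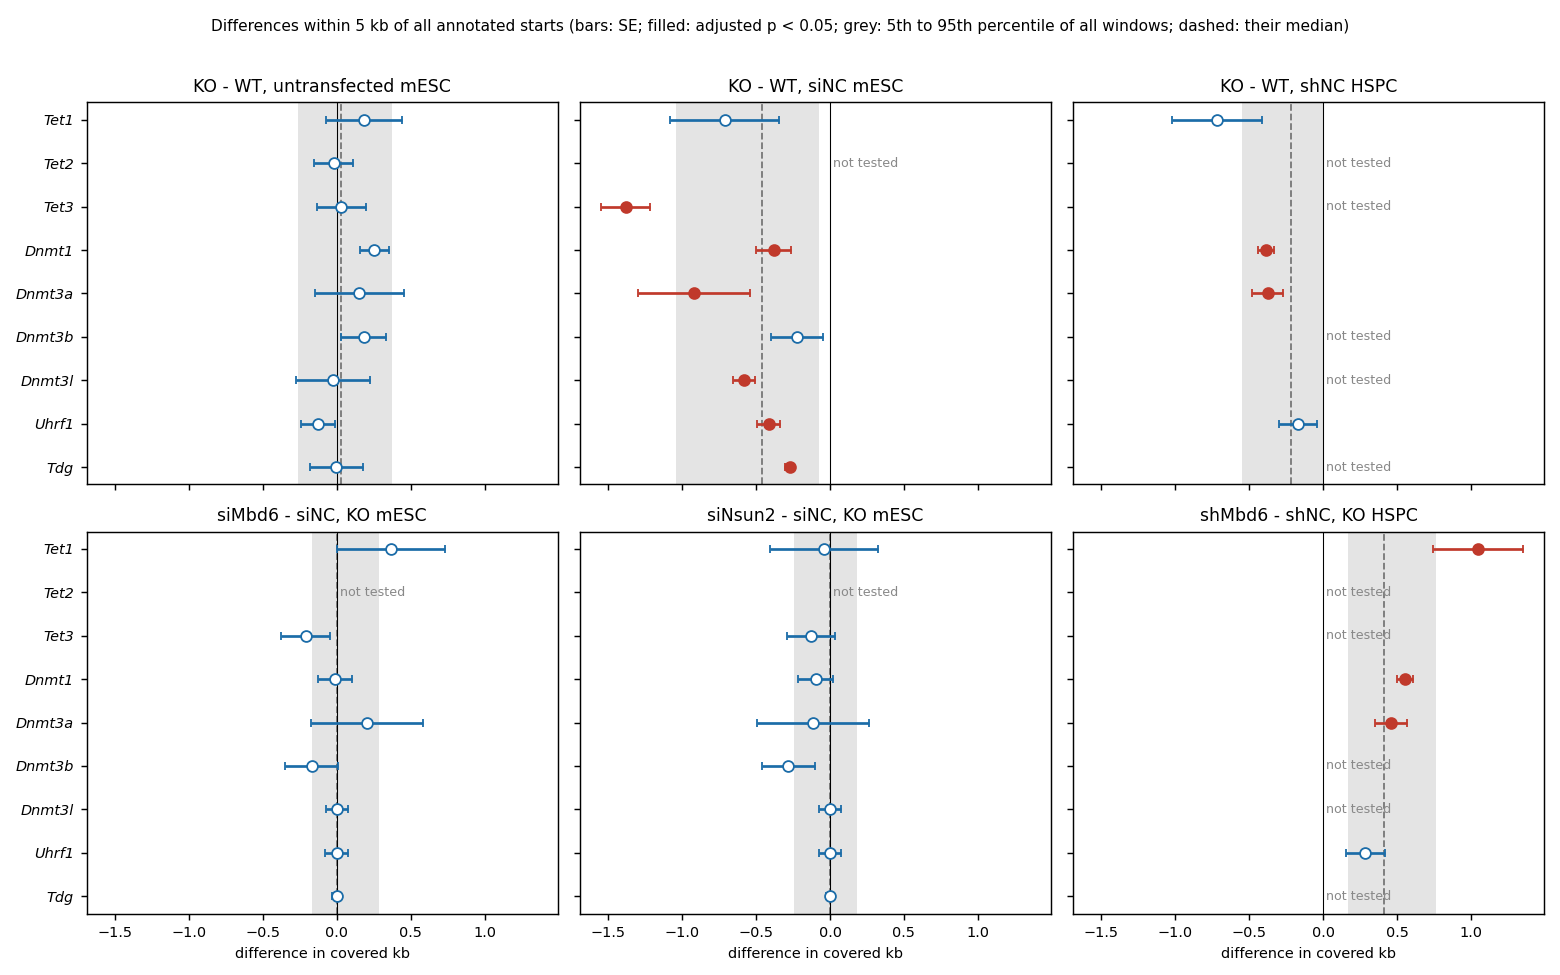
Difference in covered kb in the all-start window (horizontal axis, points with SE) for each member tested in 6 mouse comparisons, filled where the adjusted p was under 0.05, with the 5th to 95th percentile of all windows in grey and their median dashed. Tet3 in siRNA-treated mESCs lay at −1.38 kb, outside the grey band, while the members in untransfected mESCs lay inside it.

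Whether Tet2 loss differed between transfected and untransfected mESCs was tested directly as an interaction in 1 model of all mESC libraries. In the gene start window 1 of 7 members passed, against 45% of all windows that were lower. The KO effect at Dnmt3l was 0.601 kb more negative with siNC (SE 0.124, adjusted p = 0.00167), and it was called in all 18 fits that left out 1 library. With all starts 2 of 9 members passed, against 46% of all windows. The effect at Tet3 was more negative by 1.41 kb (SE 0.239, adjusted p = 0.000558) and at Dnmt1 by 0.635 kb (SE 0.158, adjusted p = 0.00564), each called in 18 of 18 such fits. Dnmt3l did not pass with all starts (−0.556 kb, adjusted p = 0.072). After rescaling to equal covered length Dnmt3l was still called in the gene start window (−0.325 kb, adjusted p = 0.00691), while 0 of 9 members passed with all starts, with 0 at an unadjusted p under 0.05. Dnmt3l was at 0 in KO siNC, and rescaling leaves that 0 in place. The labels do not say whether transfected and untransfected cells were handled together, so transfection and any batch cannot be told apart.

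In HSPCs none of the 9 genes was covered in any KO shNC library. In the gene start window 0 of 2 tested members passed, where 22.7% of all windows were called and 0 members had an unadjusted p under 0.05. Over bodies 2 of 5 were lower, against 12.5% of all bodies. Dnmt1 fell by 0.389 kb to 0 (SE 0.0553, adjusted p = 0.00649) and Dnmt3a by 0.432 kb to 0 (SE 0.104, adjusted p = 0.0302). With all starts the same genes passed, 2 of 4 against 22.2% of all windows, with adjusted p of 0.00224 and 0.0346. Dnmt1 was called in 6 of 6 fits that left out a library and Dnmt3a in 2 of 6 for the body and 1 of 6 for all starts, where its adjusted p reached 0.0923. Tet1 differed by −0.719 kb (SE 0.31) with adjusted p of 0.187 over the body and 0.127 with all starts, and Uhrf1 by −0.172 kb (adjusted p = 0.381). Rescaling kept the body calls at Dnmt1 (−0.41 kb, adjusted p = 0.00253) and Dnmt3a (−0.45 kb, adjusted p = 0.00633), while the calls over all gene start windows moved from 964 lower and 1 higher to 760 and 194. Both genes were at 0 in KO shNC, which rescaling leaves unchanged, so these calls cannot show the part of covered length.

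KO HSPCs with shMbd6 had more coverage than KO shNC at most tested members, as at most genes. In the gene start window 1 of 2 was higher, Dnmt3a by 0.458 kb (SE 0.133, adjusted p = 0.0142), where 72% of all windows were higher. Over bodies 4 of 5 were higher, against 55.4%. Tet1 gained 1.05 kb (SE 0.31, adjusted p = 0.0215), Dnmt3a 0.604 kb (SE 0.104, adjusted p = 0.00267), Dnmt1 0.553 kb (SE 0.0553, adjusted p = 0.000381) and Tet3 0.513 kb (SE 0.0651, adjusted p = 0.000758). Tet3 had entered the test only through shMbd6 and so had to differ. With all starts 3 of 4 members were higher, against 71.5%, Tet1 among them (adjusted p = 0.0145).

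The rise at Tet1 was the least secure of these. Leaving out any 1 of the KO shNC libraries ended its body call (highest adjusted p 0.0566), and after rescaling to equal covered length it was 0.59 kb with adjusted p of 0.1 for the body and 0.095 for all starts. The control group is shared with the KO against WT comparison, so both sets of values rest on the same 3 KO shNC libraries at 0. Uhrf1 differed by 0.285 kb (SE 0.128, adjusted p = 0.0722). Rescaling also ended the call at Dnmt3a in the gene start window (0.26 kb, adjusted p = 0.125) and kept the body calls at Dnmt3a, Tet3 and Dnmt1 (0.349, 0.298 and 0.318 kb). KO shNC stayed at 0 under rescaling, so the kept calls cannot show the part of covered length. Over all gene start windows the median moved from 0.404 to 0.208 kb, and the calls from 3056 higher and 4 lower to 1182 and 204. Those 3 libraries also had the most Drosophila peaks, whose part in the difference was not tested.

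In transfected KO mESCs neither knockdown brought a call at these genes. With siMbd6 0 of 6 members passed in the gene start window, where 0.177% of windows were called, and 0 of 7 over the body, where 0.00893% were, with 0 and 0 at an unadjusted p under 0.05. With siNsun2 it was 0 of 6 (0.0186% of windows called) and 0 of 7 (0.00893%), with 0 and 1 at an unadjusted p under 0.05. The Dnmt3b body, without a call, had 0.281, 0.317 and 0.527 kb in KO siNC and 0 in each siNsun2 library. With siMbd6 the Dnmt3b body had 0, 0.333 and 0 kb, which overlapped KO siNC.

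In K562 the human genes were sparsely covered, and no WT library had a peak in any of their windows. TET3 had 0, 0 and 0.588 kb in the gene start window of TET2 KO siNC cells, 0.297, 0 and 0 kb with siMBD6 and 0, 0.534 and 0.228 kb with siNSUN2. TDG had 0, 0 and 0.407 kb with siMBD6 and 0.265, 0.311 and 0 kb with siNSUN2. TET1 had 0.411 kb in replicate 1 with siNSUN2 and DNMT3A 0.298 kb in replicate 1 with siMBD6. TET2, DNMT1, DNMT3B, DNMT3L and UHRF1 were listed at 0 in the gene start window of all 12 libraries. The TDG window also holds the start of UQCC6, that of DNMT1 the start of S1PR2 and that of UHRF1 the start of ARRDC5.

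Of the human genes only TET3 and TDG could be tested, and 0 of 2 passed in each comparison and window. The background was 0.122% of windows and 0.0337% of bodies for KO against WT, 0% and 0% for siMBD6, and 0% and 0.572% for siNSUN2. At an unadjusted p under 0.05 there were 0 members in each, while over all windows the siMBD6 comparison had 264 windows and 287 bodies at that level and the siNSUN2 comparison 362 windows.

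BAP1 itself was not found at these genes. No BAP1 peak of either WT mESC library lay within the gene start window or the body of any of the 9 genes. The nearest was 31.3 kb from Dnmt1 in replicate 1, and that nearest to Tdg was 1309 kb away in replicate 1 and 1337 kb in replicate 2. BAP1 peaks lay in 131 and 152 of all 21911 windows (0.598% and 0.694%), so few genes could have shown one. The 2 lists were shorter than any of H2AK119ub from untransfected mESCs, at 2013 and 2233 peaks.

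Other genes of the DNA methylation pathway, 39 in 4 lists, gave a wider view than the 9 members. In siRNA-treated mESCs, KO siNC was lower than WT siNC at 23 of 25 tested genes in the gene start window, with a median of −0.389 kb against −0.418 kb over all windows, of which 71.9% were lower. By role, 5 of 6 readers of methylated DNA, 6 of 6 TET partners and cofactor suppliers, 9 of 9 repair genes and 3 of 4 genes for DNMT targeting were lower. Gadd45g, linked to active demethylation, fell from 1.14 to 0 kb (adjusted p = 0.000218). Zbtb38 and Mbd1, which bind methylated DNA, fell by 0.68 and 0.479 kb. Idh1 and Idh2, enzymes that make the 2-oxoglutarate used by TET proteins, differed by −0.428 and −0.573 kb, both called, and Xrcc1, a repair scaffold, fell by 0.524 kb. Zfp57 and Dppa3, which guard methylation at imprinted genes, fell by 0.518 and 0.449 kb. Over bodies 17 of 22 were lower, against 70% of all bodies. In the gene start window Gadd45g, Zbtb38, Mbd1, Idh1, Xrcc1, Zfp57 and Dppa3 were at 0 in KO siNC. A gene also at 0 with both knockdowns entered the test only through WT siNC and had to differ. The counts of the lists therefore give no support.

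In HSPCs 3 of 11 listed genes were lower in KO shNC in the gene start window, among them the methyl-CpG-binding domain genes Mbd1 (−0.336 kb) and Mbd3 (−0.328 kb), and 2 of 12 over the body, Idh1 (−0.757 kb) and Trim28 (−0.397 kb), against 22.7% of all windows called and 12.5% of all bodies lower. With shMbd6 8 of 11 were higher in the window and 6 of 12 over the body, against 72% and 55.4% of all. Gadd45a gained 0.985 kb, Idh2 0.534 kb, Idh1 0.447 kb and Mbd3 0.418 kb in the window. The first 3 of these were at 0 in KO shNC, and a gene covered only with shMbd6 had to differ. The window medians were 0.402 kb for the listed genes and 0.404 kb for all. In untransfected mESCs 0 of 30 windows and 0 of 32 bodies of the lists were called, and in transfected KO mESCs 0 of 25 windows with either knockdown.

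Genes whose gene start window tracked that of a member over the 27 mouse libraries were sought, as a description. This was done for the 5 members covered in that window in at least 9 libraries. Tet1 and Dnmt1, at 0 kb there, could not enter, though covered in 21 and 17 libraries in the all-start window. Dnmt3l was closest to Oaf (Pearson r = 0.99) and Zfp606 (0.988), Dnmt3b to Elf5 (0.932) and Fosl1 (0.926) and Uhrf1 to Camkmt and Prepl (both 0.924, with identical r). Dnmt3a was closest to Ppp1r9a (0.833) and Wdr20 (0.832), and Tet3 to Vsig10 (0.754) and Ssr3 (0.747). The libraries also share their total covered length, with which the members had r of 0.948 for Dnmt3l, 0.829 for Dnmt3b, 0.721 for Uhrf1, 0.687 for Dnmt3a and 0.495 for Tet3.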

How the data were processed

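Per the submitters' processing notes and the study's methods, the authors trimmed reads with Trimmomatic 0.39, mapped them with Bowtie2 2.4.1 to mm10 or hg38 together with Drosophila, removed duplicates with Picard and ran MACS2 in broad mode on each library. The deposited lists give peak positions, a score, a fold enrichment (a ratio to local background) and the −log10 p and −log10 q of each peak, all computed by the authors. Spike-in normalization is not part of the lists, and depth is unknown.

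Covered kb were computed in Python 3.11.15 (numpy 2.4.6, pandas 2.3.3), with interval code checked against bedtools 2.31.1, over genes of GENCODE vM21 and v44. All peaks on autosomes, X and Y were used. In R 4.3.3, limma 3.58.1 (two-sided, unlogged kb) was run on windows with a peak in 3 or more libraries of an experiment, fitting its H2AK119ub groups together. Untransfected mESCs, siRNA-treated mESCs, HSPCs and K562 were each treated as an experiment, a split made here and not given by the labels. A Benjamini-Hochberg adjusted p under 0.05 over all windows was a call. The code was tested on simulated data. The members and lists were chosen with earlier results of these data known. All 9 members are named, with up to 3 called genes with the largest difference per list and the 2 most alike genes per member. The values of 1 listed gene are not reported here. Promoters came from RefSeq. The alternatives were scaling, a stricter peak filter, a narrower window, no coverage filter, groups fitted alone, a replicate block, and each library left out.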

Additional observations from a re-analysis of the deposited data

Results flagged for a closer look

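Loss of Tet2 went with a different change in transfected than in untransfected mESCs at 3 gene and window pairs, by a test of the difference itself (limma interaction term, Benjamini-Hochberg adjusted over all windows). Of all windows 45% (gene start) and 46% (all starts) were lower in this test, against 1 of 7 and 2 of 9 members. For Dnmt3l in the gene start window the difference of the effects was −0.601 kb (adjusted p = 0.00167). For Tet3 and Dnmt1 in the all-start window it was −1.41 kb (adjusted p = 0.000558) and −0.635 kb (adjusted p = 0.00564). The KO siNC libraries had 1.82 to 4.30 Mb under peaks, against 10.0 to 17.0 Mb in WT siNC. The part of this in the differences was tested only by the rescaling to equal covered length. Rescaling kept the call at Dnmt3l and ended those at Tet3 and Dnmt1 (adjusted p = 0.453 and 0.541). Dnmt3l was at 0 in KO siNC, which rescaling leaves at 0, so its kept call cannot show the part of covered length.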

How the results depend on the processing

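Among results for comparisons and counts of members called, 132 of 150 values under other settings and 179 of 198 with 1 library left out stayed within 1.5 times of the reported count. A count of 0 that stayed at 0 is among these, and most comparisons had no member called, so the shares overstate how stable the calls were. Of values for single genes, 479 of 521 and 681 of 744 did not reverse in sign and stayed on their side of the threshold. A difference of 0, as between groups both at 0, cannot reverse and is among these. These shares therefore overstate how stable the directions were. "No filter" means every window covered in at least 1 library. For KO against WT in siRNA-treated mESCs, the members called were 1 (gene start window) and 1 (body) with peaks of −log10 q of at least 5, 6 with all starts, 3 after rescaling for the body and 3 after rescaling with all starts. In HSPCs, KO against WT gave 2 with all starts, and for the body 0 with the stricter peaks and 1 each without the filter, with the replicate block and as a share of the body. With shMbd6 in HSPCs the gene start window gave 0 after rescaling, 0 with stricter peaks, 0 with 2 kb to each side, 3 with all starts and 2 with only the 2 groups compared, and the body 1 with stricter peaks. The interaction gave 2 with all starts and, with all starts rescaled, 0, while rescaling kept Dnmt3l in the gene start window. The cause of these changes was not tested.

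The labels tie same-numbered replicates to nothing shared. The correlations of their deviations ran from 0.0016 to 0.239 in siRNA-treated mESCs (median 0.0792, against −0.0495 for different numbers), 0.0167 to 0.165 in untransfected mESCs, −0.0374 to 0.013 in HSPCs and −0.0243 to 0.0537 in K562. Since not every pair passed 0.1, they were not taken as pairs. With a replicate block the siRNA-treated mESCs gave 6 members for the body and 7 with all starts, Tet1 being the addition (adjusted p = 0.0426 and 0.0443), and 8093 lower windows against 7733. In HSPCs the block ended the body call at Dnmt3a (adjusted p = 0.0532).

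Leaving out 1 library, members called in siRNA-treated mESCs ranged from 0 to 3 (gene start window), 3 to 5 (body) and 1 to 5 (all starts), partly because genes at 0 in KO siNC then fell under the filter. They ranged from 1 to 2 in HSPCs for KO against WT (body and all starts alike), from 1 to 2 for the interaction and from 2 to 5 for it with all starts.

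Members without a call changed sign in places. In untransfected mESCs the differences became −0.0637 (rescaled) and −0.0277 kb (all starts) for Dnmt3l, −0.0867 kb (2 kb window) for Dnmt3a, and over the body 0.161 for Dnmt3l, −0.124 for Dnmt3a and −0.0587 kb for Dnmt1 with stricter peaks and −0.0553 kb for Dnmt3a rescaled. Rescaling gave 0.202 for Dnmt3b, 0.112 for Tet3 and 0.489 kb for Tet1 (body and all starts) in siRNA-treated mESCs, −0.069 kb for TET3 with siNSUN2, and in the interaction 0.277 for Dnmt3b, 0.00397 for Tet2, 0.121 for Tet3 and 0.539 kb for Tet1 (all starts). Dnmt3a with siMbd6 became −0.0387 kb in the 2 kb window and TET3 with siMBD6 0.224 kb with all starts.

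Leave-one-out ranges that crossed 0 in untransfected mESCs were −0.0523 to 0.118 for Dnmt3l, −0.0955 to 0.088 for Tdg, −0.209 to 0.25 for Dnmt3a, −0.0935 to 0.0385 for Tet2 and −0.00117 to 0.221 kb for Tet3 in the gene start window, and −0.0808 to 0.324 for Tet1, −0.242 to 0.164 for Dnmt3l and −0.324 to 0.391 kb for Dnmt3a over the body. Others were −0.0977 to 0.0863 for Dnmt1 (siMbd6, body), −0.234 to 0.081 for Tet3 (siNsun2), −0.236 to 0.13 for Tet1 (siNsun2, body), −0.196 to 0.099 for TET3 with siMBD6, −0.082 to 0.254 and, over the body, −0.0175 to 0.656 kb for TET3 with siNSUN2, and −0.111 to 0.0707 kb for Tet2 in the interaction.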
